A study of Mus musculus with 4 samples.

Results

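The cells described here are the fibroblasts of 4T1 mammary tumours that came through a sort for CD45. They were taken by the cell type name fibroblasts in the annotation that the authors deposited for 45781 barcodes, where each barcode has 1 of 23 names. That name stood on 493 barcodes, and UMI counts were used for 187 of them, out of 16383 cells with counts. Barcodes end in a suffix from 1 to 4, and the cells with counts are 140 fibroblasts of suffix 1 and 47 of suffix 2. The study compared tumours grown from Mif-depleted 4T1 cells with tumours grown from wild-type 4T1 cells, in BALB/c mice, with 2 libraries in each group and 3 tumours dissociated for each library. 4T1 is a mammary carcinoma line of BALB/c origin, so tumour and host share a strain. In all groups the tumours were digested with collagenases and DNase, red and dead cells were removed, and the cells that stained for CD45 and took up no propidium iodide were sorted before droplet-based sequencing. Each library pooled several animals, so animals cannot be told apart. The suffix of a barcode is not tied to a sample by anything in the labels. The Mif-depleted and wild-type groups are therefore not compared, suffixes 1 and 2 are described apart, and no value here has replicates, an SD or a p-value.

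Fibroblasts make and remodel the extracellular matrix: fibrillar collagens, the glycoproteins and small proteoglycans that bind them, and the enzymes that modify and cut them. In tumours they are known for matrix-rich, contractile and inflammatory states. They are not blood cells and are not usually marked by CD45, the phosphatase encoded by Ptprc that marks leukocytes. In a CD45 sort they are called a by-product here, and how they came through it was not tested. Epithelial cells, the name that would hold the 4T1 carcinoma cells, are in the same position, and they serve as the second reference below.

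The counts used here cover 4099 genes, from chromosome 1 to part of chromosome 5. Genes outside them, such as Col1a1, Col1a2 (which the annotation adds to the fibroblast name), Pdgfra, Acta2 and Mif, were not analysed here. Over these genes the fibroblasts held 493255 UMIs in suffix 1, with a median of 2301 per cell and a range from 107 to 13179. In suffix 2 they held 185841 UMIs, with a median of 3782 per cell and a range from 128 to 11503. All other cells had medians of 1219.5 UMIs in suffix 1 (13022 cells) and 1702 in suffix 2 (3174 cells). The epithelial cells had medians of 826 (499 cells) and 3377.5 (106 cells). Between 24 and 42 barcode sequences recurred between any pair of suffixes, and 0 of those recurring between suffixes 1 and 2 were named fibroblasts in both. A level below is the number of UMIs of a gene per 10000 counted UMIs, summed over the cells of a name and suffix. Square brackets give 95% intervals, exact Poisson for levels, conditional binomial for ratios and Clopper-Pearson for shares, and they cover counting error only.

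Of all annotated barcodes, 1.08% [0.984, 1.18] were fibroblasts. By suffix the numbers were 140, 162, 78 and 113 fibroblasts in suffixes 1 to 4, which were 1.06% [0.896, 1.25], 1.35% [1.15, 1.58], 0.837% [0.662, 1.04] and 0.996% [0.822, 1.20] of the barcodes. The share was highest in suffix 2 and lowest in suffix 3, and this was the only pair whose intervals did not overlap. Counts were at hand for all 140 fibroblasts of suffix 1 but for 29.0% of those of suffix 2. In a sorted sample these shares reflect the gate as well as the tumour, and fewer fibroblasts in a tumour cannot be told apart from fewer that passed the gate.

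The name was checked against the 4 marker genes Col3a1, Postn, Serping1 and Podn. Because the authors may have named the cells from these same genes, the values describe the name and test nothing. Col3a1 encodes the chain of type III collagen and lies on the plus strand of chromosome 1 (45311538 to 45349706, GRCm38, GENCODE annotation). Its level was 575 [568, 581] in suffix 1 fibroblasts, against 0.130 in all other cells, and 640 in suffix 2 fibroblasts, against 0.213 in all other cells. This 1 gene made up 5.75% of the counted UMIs of suffix 1 fibroblasts and 6.40% of those of suffix 2, and 98.7% and 98.5% of all Col3a1 UMIs of the suffix lay in fibroblasts. Serping1, the C1 inhibitor of the complement and contact systems (chromosome 2, 84765387 to 84775444, minus strand), had a level of 57.6 in suffix 1 fibroblasts, against 0.00688 in all other cells, and 61.5 in suffix 2 fibroblasts. Postn, the matricellular protein periostin (chromosome 3, 54361109 to 54391037, plus strand), stood at 64.7 in suffix 1 fibroblasts, against 0.0189 in all other cells, and at 76.5 in suffix 2 fibroblasts. Podn, the small leucine-rich proteoglycan podocan (chromosome 4, 108014791 to 108096445, minus strand), gave 270 UMIs in 38 suffix 1 fibroblasts, against 1 UMI in the 13022 other cells. All 4 genes were thus higher than in all other names pooled, in both suffixes.

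Not every cell with the name showed the markers. Col3a1 had at least 1 UMI in 103 of 140 suffix 1 fibroblasts (73.6%) and in 39 of 47 suffix 2 fibroblasts (83.0%), against 2.81% and 8.49% of epithelial cells. With each cell thinned to 500 UMIs, the Col3a1 shares were 78.8% of fibroblasts and 0.875% of epithelial cells in suffix 1, and 89.2% and 3.57% in suffix 2. The thinning leaves out 36 and 10 fibroblasts and 156 and 22 epithelial cells with fewer UMIs. Among all other cells, 372 of suffix 1 (2.86%) and 168 of suffix 2 (5.29%) had a Col3a1 UMI, with at most 2 and 3 UMIs in a cell. Of the 14 measured genes in a list of fibroblast markers, 118 of 140 suffix 1 fibroblasts (84.3%) and 42 of 47 suffix 2 fibroblasts (89.4%) had at least 1 UMI. The remaining 22 and 5 cells had none, and 14 and 3 of these had fewer than 500 counted UMIs in all. Per cell, the summed level of the 14 markers had a median of 473 in suffix 1, with quartiles of 78.4 and 1005, and a median of 455 in suffix 2.

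**Figure D1:**
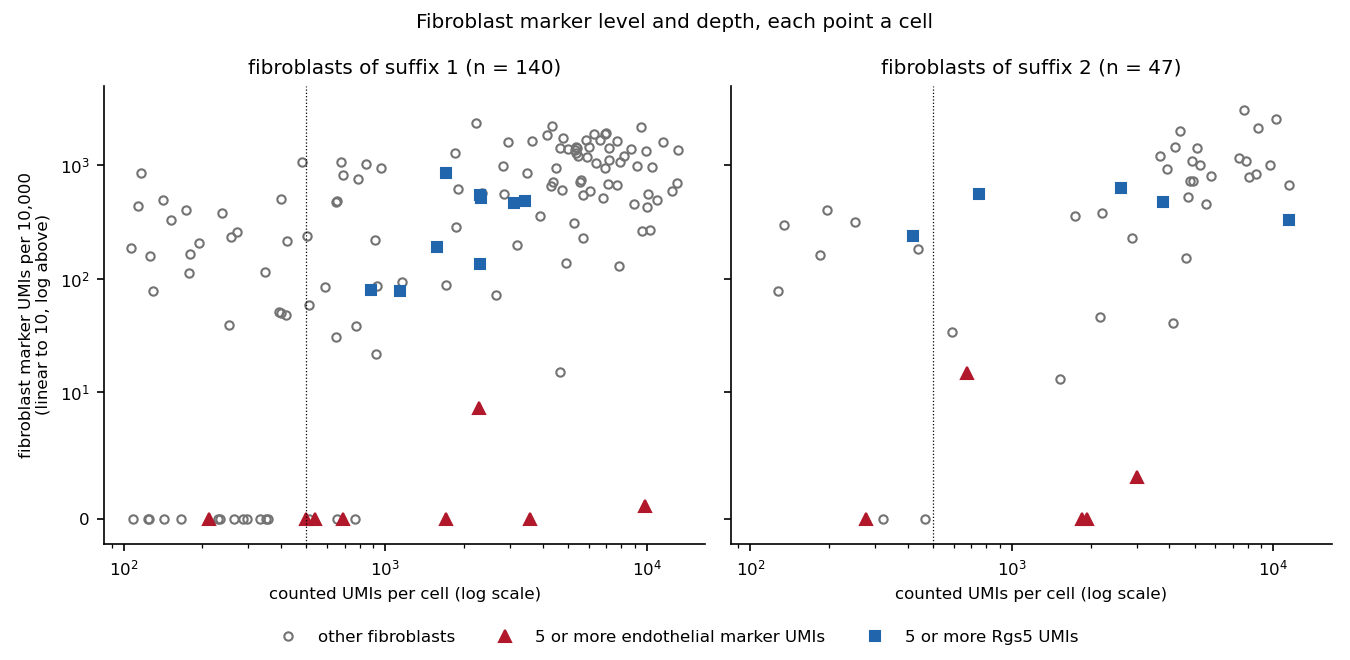
Summed level of 14 fibroblast markers (UMIs per 10000 counted UMIs) against counted UMIs, for each fibroblast of suffix 1 (left) and suffix 2 (right). The dotted line marks 500 UMIs; red triangles are cells with 5 or more UMIs of endothelial markers and blue squares are cells with 5 or more Rgs5 UMIs. Most cells above 500 UMIs carry the markers, with medians over all cells of 473 and 455, while most of the red triangles sit at or near 0.

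The promoters of 4 genes that carry the results are shown, because Col3a1 and Postn set the fibroblasts apart from the other cells and Grem1 and Sfrp2 set fibroblasts apart from each other (below). Each is the 250 bases upstream of the RefSeq start on GRCm38.p6, written 5′ to 3′ on the strand of the gene, with matches on either strand to 3 motifs in capitals. The motifs were TATAAA, the core of a TATA box, then CCAAT, the letters of a CCAAT box, and lastly GGGCGG, those of a GC box. Col3a1 is chr1:45311288-45311537 (plus strand), Postn is chr3:54360857-54361106 (plus), Grem1 is chr2:113758649-113758898 (minus) and Sfrp2 is chr3:83766071-83766320 (plus).
Col3a1: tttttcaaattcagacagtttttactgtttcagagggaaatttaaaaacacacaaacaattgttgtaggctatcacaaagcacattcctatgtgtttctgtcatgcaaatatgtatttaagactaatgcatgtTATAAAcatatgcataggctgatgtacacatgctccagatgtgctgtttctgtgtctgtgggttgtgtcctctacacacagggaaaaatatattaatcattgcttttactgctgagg
Postn: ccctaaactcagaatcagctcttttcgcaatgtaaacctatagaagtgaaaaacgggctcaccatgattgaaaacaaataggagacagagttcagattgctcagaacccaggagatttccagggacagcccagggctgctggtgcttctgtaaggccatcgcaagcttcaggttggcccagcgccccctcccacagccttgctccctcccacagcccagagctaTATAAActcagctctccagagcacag
Grem1: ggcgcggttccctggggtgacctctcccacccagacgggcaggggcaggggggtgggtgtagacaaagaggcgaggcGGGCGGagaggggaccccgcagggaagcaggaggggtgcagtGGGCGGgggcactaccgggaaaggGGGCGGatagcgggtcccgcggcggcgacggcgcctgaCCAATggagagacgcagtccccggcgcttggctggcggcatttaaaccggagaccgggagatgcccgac
Sfrp2: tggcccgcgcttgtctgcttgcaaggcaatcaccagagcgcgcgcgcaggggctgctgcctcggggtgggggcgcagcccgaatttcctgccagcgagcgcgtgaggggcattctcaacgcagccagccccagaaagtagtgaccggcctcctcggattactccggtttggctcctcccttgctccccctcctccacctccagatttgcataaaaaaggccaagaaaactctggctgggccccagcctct
TATAAA was found once in the Col3a1 window, 117 bases before the start, and once in the Postn window, 26 bases before the start. The Grem1 window held GGGCGG at 173, 131 and 107 bases and CCAAT at 69 bases before the start, and the Sfrp2 window held none of these letters. Of 32841 windows of this length and place, 12.4% held TATAAA, 33.9% held CCAAT and 32.7% held GGGCGG. The GC content was 35.2% for Col3a1, 52.0% for Postn, 72.0% for Grem1 and 63.6% for Sfrp2. These matches are descriptions of letters and not binding sites.

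Against all other cells of suffix 1, 588 of 3514 genes with at least 50 UMIs (16.7%) were higher in fibroblasts and 208 (5.92%) lower, where higher or lower means that the interval of the ratio lay beyond 2-fold. In suffix 2 the numbers were 333 (10.8%) higher and 184 (5.96%) lower of 3087 genes. These shares are the background for every list below, and the median log2 ratio over all genes was 0.30 in suffix 1 and 0.09 in suffix 2. Some genes, such as Podn, Fmod and Col11a1, reached 50 UMIs only through the fibroblasts. Once tested, they could hardly be called anything but higher, so the shares of lists that hold such genes are descriptions. The same applies to genes such as Col5a2 and Serping1 in the comparison with epithelial cells below. Of the 588 genes higher in suffix 1, 302 passed the same rule in suffix 2 and 577 had the same sign there. Of the 208 lower genes, 137 passed in suffix 2 and 206 had the same sign. The other cells are mostly leukocytes, and the neutrophil genes S100a8 and S100a9 take a large share of their UMIs. Leaving both genes out of the denominator moved every log2 ratio of suffix 1 by -0.37, and UMIs per cell in place of UMIs per 10000 moved it by 0.66. The split was then 475 higher and 330 lower, or 971 higher and 100 lower. All 14 measured fibroblast markers were higher than in all other cells in suffix 1, and 13 of 13 tested ones in suffix 2, which the name itself may fix.

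The 20 genes with the highest ratios to all other cells were mainly genes of the matrix and of secreted signals. Besides the 4 markers' own Podn, Serping1 and Col3a1, they held Sulf1, a heparan sulfate endosulfatase, with a level of 7.26 in fibroblasts and 3 UMIs in all other cells (log2 ratio 12.78 [11.22, 15.06]). Fibin, a secreted factor named for fin bud initiation in fish, stood at 9.57 in fibroblasts, against 0.00138 in all other cells, and at 9.26 in suffix 2 fibroblasts. Dpt, the matrix protein dermatopontin, stood at 8.11 in fibroblasts, against 0.00138 in all other cells, and at 11.4 in suffix 2 fibroblasts. Kcne4, a potassium channel subunit (2.94), Adamtsl1, a matrix glycoprotein (2.07), and Prokr2, a prokineticin receptor (1.52), each had 1 UMI among all other cells of suffix 1. Others of the 20 are Igfbp5, Ptx3, Sfrp2, Prrx2, Col11a1, Col5a2, Col6a3, Myl9, Grem1 and Prelp, which appear under their roles.

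Collagen genes were higher almost as a group. Of 9 tested collagens, 8 passed the rule in suffix 1 and 7 of 7 passed it in suffix 2, beside backgrounds of 16.7% and 10.8%, with median log2 ratios of 8.89 and 8.74. Summed, the 12 measured collagens had a level of 733 in suffix 1 fibroblasts, against 0.553 in all other cells, and 812 in suffix 2 fibroblasts, against 0.859. Col3a1 alone made up 575 and 640 of the fibroblast sums. As Col3a1 may have set the name and Col11a1 was tested only through the fibroblasts, the share of this list is a description. Col5a2, a chain of type V collagen that lies next to Col3a1 on the minus strand of chromosome 1 (45374321 to 45503282), had 78.3 in fibroblasts, against 0.0175 in all other cells, and 86.0 in suffix 2 fibroblasts. Its partner chain Col5a1 had 31.9 in fibroblasts, against 0.0674 in all other cells, and 33.2 in suffix 2 fibroblasts. Col6a3, a chain of beaded-filament type VI collagen, had 28.8 in fibroblasts, against 0.00654 in all other cells, and 29.3 in suffix 2 fibroblasts. The fibrillar chain Col11a1 gave 84 UMIs in fibroblasts and 1 UMI in all other cells. Col15a1, a basement membrane zone collagen, had 10.0 in fibroblasts, against 0.0526 in all other cells. Col16a1, a fibril-associated collagen, had 4.50, against 0.0464, and Col27a1 had 2.27, against 0.176. The collagens thus kept much the same levels in the fibroblasts of both suffixes.

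Other matrix genes followed. Of 21 tested glycoproteins, 18 were higher in suffix 1 fibroblasts and 1 was lower, and in suffix 2 13 of 16 were higher. The median log2 ratios were 6.43 and 5.05. Tnc, the matricellular protein tenascin-C, had a level of 53.8 in fibroblasts, against 0.0351 in all other cells, and 57.8 in suffix 2 fibroblasts. Fbn1, the microfibril protein fibrillin, had 25.1 in fibroblasts, against 0.0103 in all other cells, and 24.6 in suffix 2 fibroblasts. Fn1, fibronectin, which monocytes and macrophages also make, had 105 [102, 108] in fibroblasts, against 28.0 in all other cells, and 104 in suffix 2 fibroblasts, against 32.0. Among the 23 names its level was highest in fibroblasts in suffix 1 and came after the monocyte name Mono_Itgal (153) in suffix 2. Thbs1, thrombospondin, had 29.5 in fibroblasts, against 4.14 in all other cells, with 3 other names higher in suffix 1 and 2 in suffix 2. Npnt, the basement membrane protein nephronectin, was the glycoprotein that was lower, with 0 UMIs in suffix 1 fibroblasts and a level of 0.280 in all other cells.

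All 3 measured small leucine-rich proteoglycans were higher in suffix 1. Beside Podn, Prelp, which anchors collagen at basement membranes, had a level of 5.55 in fibroblasts, against 0.00138 in all other cells. Fmod, the collagen-binding fibromodulin, had 68 UMIs in fibroblasts and 0 in all other cells. With 3 counts put for the 0, as for each 0 below, that is a log2 ratio of 10.38. Of the collagen-processing genes, 3 of 4 were higher: the lysyl hydroxylase Plod1 (6.85, against 1.19), the prolyl hydroxylase P3h1 (4.03, against 0.172) and Creb3l1, a transcription factor of the secretory pathway (3.99, against 0.0557). The proteases and their inhibitors moved in both directions. In suffix 1, 4 of 10 were higher and 1 lower, with a median log2 ratio of 0.29, beside 0.30 over all genes. Fap, the fibroblast activation protein, had a level of 3.30 in fibroblasts, against 0.0292 in all other cells. Serpine2, a serine protease inhibitor, had 31.3 in fibroblasts, against 0.165 in all other cells, and 26.7 in suffix 2 fibroblasts. Mmp23 (4.80, against 0.0107) and the aggrecanase Adamts4 (3.10, against 0.0114) were the other higher ones. Mmp9, a gelatinase that neutrophils carry, was lower, at 2.51 in fibroblasts, against 20.0 in all other cells. Ctsk, the collagen-cutting cathepsin K, stood at 15.4 in suffix 1 fibroblasts, against 19.4 in all other cells, and at 17.9 in suffix 2 fibroblasts, against 91.1. It was lower by the rule in suffix 2, and the dendritic cell names cDC1_Clec9a and pDC had more Ctsk than fibroblasts in both suffixes.

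**Figure D2:**
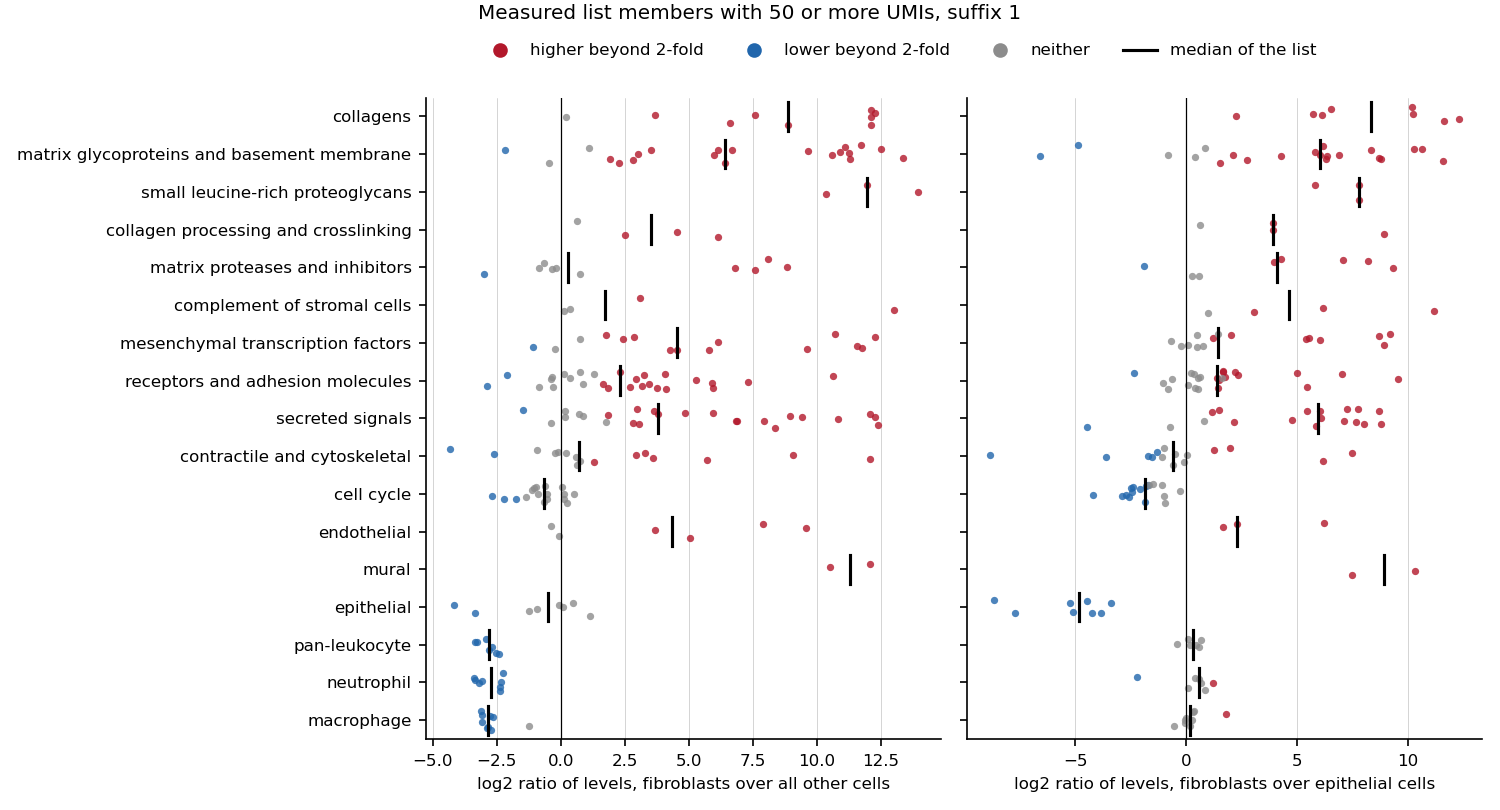
Log2 ratio of the level in suffix 1 fibroblasts to that in all other cells and to that in epithelial cells, with 1 point per tested gene of each list and black bars at the medians. Against all other cells the small leucine-rich proteoglycans and the collagens have medians of 11.98 and 8.89, and pan-leukocyte genes lie at -2.82 against all other cells but at 0.31 against epithelial cells.

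Transcription factors of mesenchymal cells were measured for 16 genes. Of 15 tested in suffix 1, 12 were higher and 1 lower, with a median log2 ratio of 4.54, and in suffix 2 10 of 13 were higher. Prrx1, a homeobox factor of limb and connective tissue mesenchyme, had a level of 14.6 in fibroblasts, against 0.00413 in all other cells, and 15.3 in suffix 2 fibroblasts. Its relative Prrx2 had 3.45 in fibroblasts and 2 UMIs in all other cells (log2 ratio 12.29 [10.42, 15.35]). Twist2, a basic helix-loop-helix factor, had 1.64 in fibroblasts, against 0.00206 in all other cells, and 3.77 in suffix 2 fibroblasts. Nfib had 5.60 in fibroblasts, against 0.240 in all other cells, and Snai1 had 3.61, against 0.501. Zeb2, which macrophages also use, stood at 9.49 in fibroblasts, with a log2 ratio to all other cells of -0.21 [-0.34, -0.08], and did not pass the rule. Cebpb, a factor of myeloid cells and of inflammation, was the lower gene, at 61.3 in fibroblasts, against 129 in all other cells.

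Of 27 tested receptors and surface proteins, 16 were higher in suffix 1 fibroblasts and 2 were lower, and in suffix 2 12 of 25 were higher and 3 lower. Pdpn, podoplanin, had a level of 10.9 in fibroblasts, against 1.16 in all other cells, and 13.9 in suffix 2 fibroblasts, against 2.39. In suffix 2 Mono_Itgal had more Pdpn (19.0). Il11ra1, the interleukin 11 receptor, had 8.49 in fibroblasts, against 0.220 in all other cells, and 8.18 in suffix 2 fibroblasts. Il1r1, the signalling interleukin 1 receptor, had 5.53 in fibroblasts, against 0.0894 in all other cells, and 5.22 in suffix 2 fibroblasts. Vcam1, which binds leukocyte integrins, had 7.03 in fibroblasts, against 0.407 in all other cells, and 8.07 in suffix 2 fibroblasts, the highest level of the 23 names in both. Ddr2, a collagen-binding receptor kinase, had 2.98 in fibroblasts, against 0.0495 in all other cells. Plpp3, a phosphatase of bioactive lipids, had 6.28, against 0.0399. Itga4, an integrin chain of leukocytes that binds Vcam1, and Il6ra were lower, with Itga4 at 0.284 in fibroblasts, against 2.10 in all other cells.

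Several of the secreted signals came from a minority of the cells. Of 25 tested in suffix 1, 18 were higher and 1 lower, and in suffix 2 13 of 19 were higher. Sfrp2, a secreted modulator of Wnt signalling, gave 545 UMIs from 29 cells of suffix 1 and 657 UMIs from 15 cells of suffix 2. Its log2 ratio to all other cells was 12.39 in suffix 1, where they had a level of 0.00206. Grem1, an antagonist of bone morphogenetic proteins, gave 510 UMIs from 33 cells and 450 UMIs from 14 cells, at levels of 10.3 and 24.2, against 0.00241 in all other cells of suffix 1. Ptx3, a pentraxin of innate defence and matrix assembly, gave 736 UMIs from 31 cells of suffix 1, at a level of 14.9, against 0.00241 in all other cells, and 9.26 in suffix 2 fibroblasts. Igfbp5, which binds insulin-like growth factors, had 537 UMIs from 14 cells, but 425 of them came from 1 cell. In suffix 2 its level was 1.61. The growth factors Tgfb2 (3.49, against 0.0296), Fgf7 (2.13, against 0.00310), Fgf2 (1.78, against 0.00722) and Inhbb (2.03, against 0.00413) were all higher in suffix 1 fibroblasts than in all other cells.

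Il6, a cytokine that marks inflammatory fibroblasts, gave 214 UMIs from 35 cells of suffix 1. Its level was 4.34 [3.78, 4.96] in fibroblasts, against 0.549 in all other cells (log2 ratio 2.98 [2.77, 3.19]), and 7.59 in suffix 2 fibroblasts, against 0.509. Fibroblasts came first among the 23 names in both suffixes, ahead of cDC1_Ccl22 (4.02) in suffix 1 and Mono_Ly6c2 (3.43) in suffix 2. The level of cDC1_Ccl22 lies within the interval of the fibroblasts. Lbp, which hands bacterial lipopolysaccharide to its receptor, had 17.2 in fibroblasts, against 0.461 in all other cells, and 14.9 in suffix 2 fibroblasts. Tnfaip6, a hyaluronan-binding protein induced in inflammation, had 15.5 in fibroblasts, against 1.02 in all other cells, and 21.5 in suffix 2 fibroblasts. Csf1, the macrophage growth factor, had 4.07 in fibroblasts, against 2.48 in all other cells, and Ptgs2, the inducible cyclooxygenase, had 18.4, against 10.2. Neither passed the rule. Ptges (2.84, against 0.0984) and Ptgis (1.26, against 0.00378), the synthases of prostaglandin E and prostacyclin, were higher in fibroblasts.

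Contractile and cytoskeletal genes were mixed, with 7 of 16 higher and 2 lower in suffix 1. Tpm2, a tropomyosin, had a level of 21.3 in fibroblasts, against 0.0396 in all other cells, and 12.9 in suffix 2 fibroblasts. Myl9, the myosin light chain of smooth muscle, had 4.46 in fibroblasts and 3 UMIs in all other cells (log2 ratio 12.08 [10.51, 14.37]). S100a4, which in the mouse has been called a fibroblast-specific protein, was lower, at 5.41 in suffix 1 fibroblasts, against 33.4 in all other cells, and at 2.15 in suffix 2 fibroblasts, against 89.3. The other lower gene was Tnnt2, a troponin of heart muscle, with 1 UMI in suffix 1 fibroblasts. Cell cycle genes were not higher: 0 of 17 were called higher and 3 lower in each suffix, and their summed level in suffix 1 was 16.4 in fibroblasts, against 25.9 in all other cells.

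The genes with the lowest ratios to all other cells had various known roles. Il1a, an interleukin 1 chain, had a level of 0.264 in suffix 1 fibroblasts, against 5.79 in all other cells. Wfdc2, a secreted epithelial protein, had 0.243, against 4.34. Icos and Dapl1, both known from lymphocytes, had 1 UMI each in suffix 1 fibroblasts. Ocstamp, an osteoclast fusion protein, had 2 UMIs in suffix 1 fibroblasts, and with the mean over cells in place of the sum its log2 ratio was 0.58, above 0. The remaining 5 of these 10 genes were Tnnt2, Kynu, Lamb3, Rgs18 and Slamf6.

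Epithelial cells were the closer reference for by-products of a CD45 sort. Of 2411 genes tested in suffix 1, 273 (11.3%) were higher in fibroblasts and 172 (7.13%) lower, and in suffix 2 157 (10.2%) were higher and 81 (5.26%) lower of 1540. The median log2 ratios were -0.05 and -0.06. Of the 273 higher genes, 138 passed in suffix 2 and 269 had the same sign, and of the 172 lower ones 67 passed and 167 had the same sign. With UMIs per cell, all these suffix 1 log2 ratios would move by 0.53 and those of suffix 2 by -0.05.

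All 14 fibroblast markers were higher than in epithelial cells in suffix 1, with a median log2 ratio of 8.78. Col3a1 stood at 575 in fibroblasts, against 0.115 in epithelial cells (log2 ratio 12.29 [11.54, 13.16]), and Postn at 64.7, against 0.0411. Col5a2 and Serping1 had 0 UMIs in the 499 epithelial cells, and with 3 counts put for each 0 their log2 ratios were 11.63 and 11.19. Among collagens 8 of 8 were higher, among glycoproteins 16 of 21, among secreted signals 15 of 18, among proteases and inhibitors 5 of 8 and among collagen-processing genes 3 of 4. The 15 highest genes against epithelial cells also held Cpxm1, a secreted carboxypeptidase-like protein (34.5 in fibroblasts, log2 ratio 10.03), Svep1, an adhesion protein (10.4, log2 ratio 10.30 [7.82, 15.61] from 1 epithelial UMI), Fbn1, Rgs5, Col15a1, Col6a3, Plpp3, Serpine2, Ptx3, Prg4 and Scn7a. Prg4, the lubricant proteoglycan of joints, had a level of 8.92 in fibroblasts, and Scn7a, an atypical sodium channel, had 6.16.

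Several genes that stood out against all other cells, which include the epithelial cells, did not do so against epithelial cells alone. Fn1 had 105 in fibroblasts, against 58.7 in epithelial cells (log2 ratio 0.84), Nfib 5.60, against 5.31, Gpc1 4.30, against 3.69, and Id3 19.3, against 31.4. None of these passed the rule. Contractile genes turned to 4 higher and 5 lower of 15: S100a6 had 166 in fibroblasts, against 475 in epithelial cells, S100a10 29.9, against 97.4, Lmna 16.6, against 42.0, and S100a4 5.41, against 66.1. Cell cycle genes were lower in 11 of 17 and higher in 0, with a summed level of 16.4 in fibroblasts, against 63.0 in epithelial cells. In suffix 2, 4 of 12 were lower. Cks1b, a kinase-binding cell cycle protein, had 3.69 in fibroblasts, against 19.6 in epithelial cells, Ube2c, an enzyme of mitotic exit, 1.07, against 5.85, and the replication helicase subunit Mcm6 0.365, against 2.35. Pcna, at 3.75, against 7.16, did not pass.

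Epithelial markers were near 0 in the fibroblasts. As these genes may have set the epithelial name, and some reached 50 UMIs only through the epithelial cells, their ratios are given as a description. The 10 measured markers had a summed level of 0.608 in fibroblasts, against 123 in epithelial cells, and 0.700 in suffix 2 fibroblasts. Wfdc2 had a level of 0.243 in fibroblasts, against 99.6 in epithelial cells (log2 ratio -8.68 [-9.63, -7.87]), and 0.161, against 121, in suffix 2. Sfn, a 14-3-3 protein of epithelia, had 0.0608, against 12.8, and Gata3, the luminal transcription factor, had 0.0811, against 3.80. Lad1, Gpa33 and Fermt1 had 0 UMIs in suffix 1 fibroblasts, against 2.31, 3.97 and 2.77 in epithelial cells. Of the matrix genes, Npnt and Lama5 were lower: Npnt had 0 UMIs in fibroblasts, against a level of 5.94 in epithelial cells, and the laminin chain Lama5 had 0.122, against 3.57. The 15 lowest genes further held Tnnt2, Fbxo2, Glrp1, Lamb3, Dyrk3, Galnt3, Krtcap3 and Rap1gap.

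Ptprc, the gene of the sorted antigen CD45 (chromosome 1, 138062861 to 138175708, minus strand), was low. It gave 175 UMIs in suffix 1 fibroblasts, a level of 3.55, against 20.7 in all other cells (log2 ratio -2.54 [-2.76, -2.33]). In suffix 2 it gave 35 UMIs, a level of 1.88, against 18.3. Fibroblasts were 22nd of the 23 names by Ptprc level in both suffixes, and NK_cell was highest, at 71.0 and 81.7. Against epithelial cells the Ptprc level was 3.55, against 2.34, in suffix 1 and 1.88, against 1.38, in suffix 2. A Ptprc UMI was found in 29.3% [21.9, 37.6] of fibroblasts and 16.6% [13.5, 20.2] of epithelial cells in suffix 1. With cells thinned to 500 UMIs these shares were 17.3% [10.6, 26.0] and 9.91% [6.96, 13.6], against 69.7% of neutrophils. In suffix 2 they were 29.8% [17.3, 44.9] and 17.9%, and after thinning 16.2% [6.19, 32.0] and 7.14%. The intervals of both by-product names overlap after thinning, at the cell numbers at hand.

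**Figure D3:**
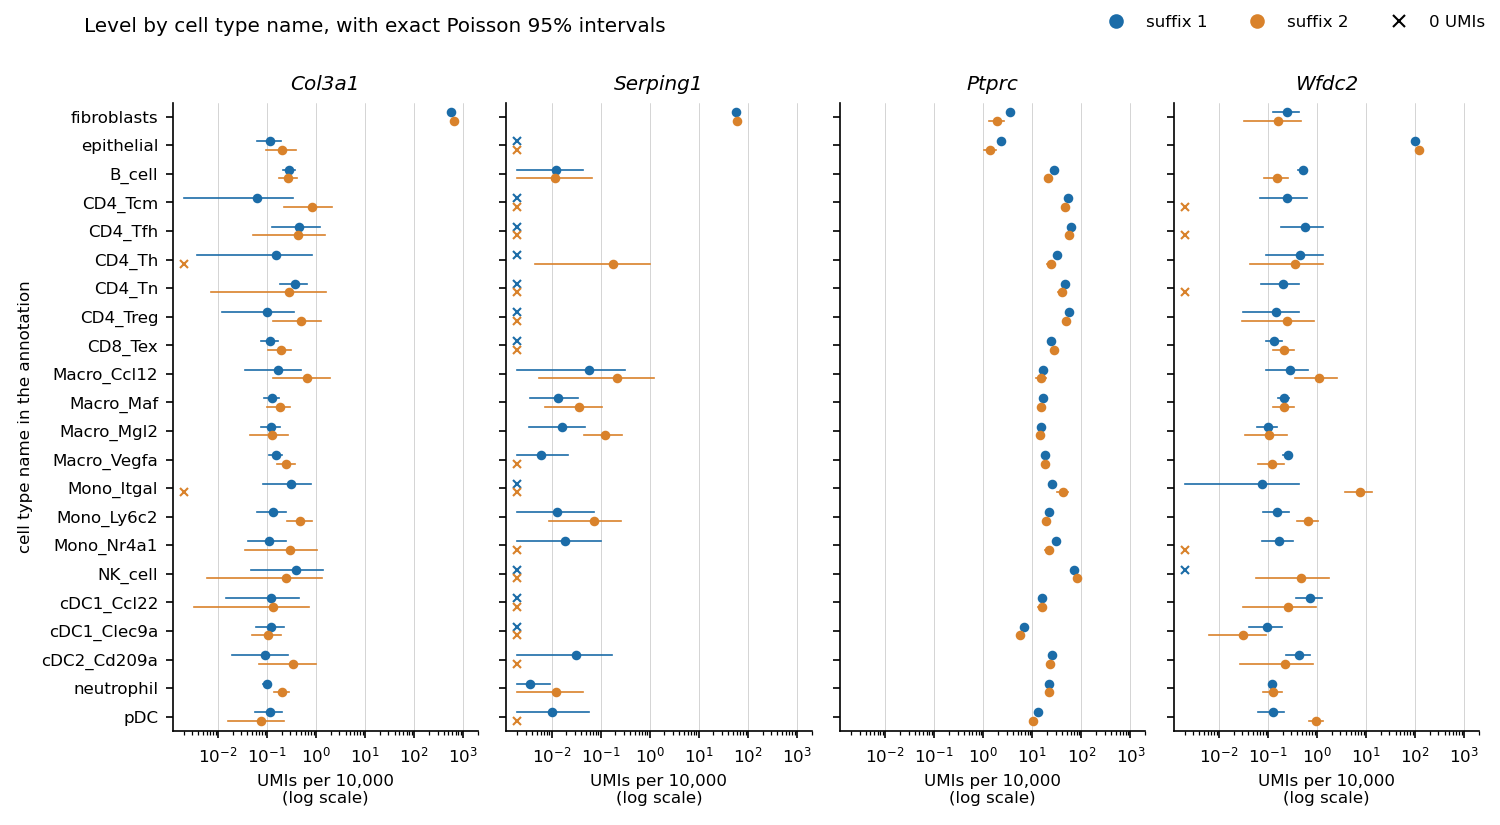
Levels (UMIs per 10000 counted UMIs, log axis, with exact 95% Poisson intervals) of Col3a1, Serping1, Ptprc and Wfdc2 in 22 cell type names, fibroblasts at the top, in suffix 1 (blue) and suffix 2 (orange), with crosses where there were 0 UMIs. Col3a1 is at 575 and 640 in fibroblasts, Ptprc at 3.55 and 1.88, and Wfdc2 is highest in epithelial cells at 99.6 and 121.

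Other leukocyte transcripts were also low against all other cells and close to epithelial cells. All 7 pan-leukocyte genes were lower than in all other cells in suffix 1, with a summed level of 30.4 in fibroblasts, against 206. Against epithelial cells 0 of 6 passed in either direction, at 30.4 in fibroblasts, against 25.0. In suffix 2 the sum was 20.1 in fibroblasts, against 215 in all other cells and 16.5 in epithelial cells. Macrophage genes summed to 26.2 in suffix 1 fibroblasts, against 186 in all other cells and 23.1 in epithelial cells. All 8 neutrophil genes were lower, with sums of 274 in suffix 1 fibroblasts, against 2570 in all other cells and 254 in epithelial cells, and 114 in suffix 2 fibroblasts, against 1325 and 132. S100a9, a subunit of calprotectin, had a UMI in 90.7% of suffix 1 fibroblasts and 92.8% of epithelial cells, and 60.6% and 63.0% after thinning. B cells, not known to make calprotectin, had 79.8% after thinning. In suffix 2 the thinned S100a9 shares were 54.1% [36.9, 70.5] of fibroblasts, 26.2% [17.2, 36.9] of epithelial cells and 46.4% [41.1, 51.7] of B cells. The share in fibroblasts was thus below that of B cells in suffix 1 and not apart from it in suffix 2, where it was above that of epithelial cells. T and NK cell, B cell and osteoclast lists each had 4 genes lower in suffix 1 and 0 higher, with sums of 1.14, 0.466 and 18.3 in fibroblasts, against 6.56, 3.11 and 42.8.

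These transcripts were not spread evenly over the fibroblasts. In suffix 1, 20 of the 140 cells held 93.4% of the S100a8 and S100a9 UMIs. A group of 19 cells in suffix 1 and 3 in suffix 2 had 50 or more UMIs of the pair, a limit chosen after the values were seen. Ptprc was found in 18 of the 19 and in 3 of the 3, which is 43.9% and 21.4% of all fibroblasts with a Ptprc UMI. In suffix 1 the 19 cells held 124 of the 175 Ptprc UMIs (log2 ratio of their level to that in the remaining fibroblasts 3.03 [2.55, 3.53]). The level of the neutrophil growth factor receptor Csf3r was 9.48 in these cells, against 0.131, and that of the cytokine Il1b 52.4, against 4.13. Their Col3a1 level was 492, against 599 in the remaining fibroblasts, and their median depth was 5562 UMIs, against 1713. In suffix 2 the 3 cells had Ptprc at 12.7, against 1.20, and Col3a1 at 571, against 645. The 41 suffix 1 fibroblasts with a Ptprc UMI had a median of 4728 UMIs, against 931 in those without, and Col3a1 at 511, against 624. The median depth of the 3 cells was 3932 UMIs, against 3731. In both suffixes these cells thus carried fibroblast and neutrophil transcripts side by side, and in suffix 1 they were deeper than the remaining fibroblasts. No doublet caller was run, and whether these barcodes hold more than 1 cell was not tested.

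**Figure D4:**
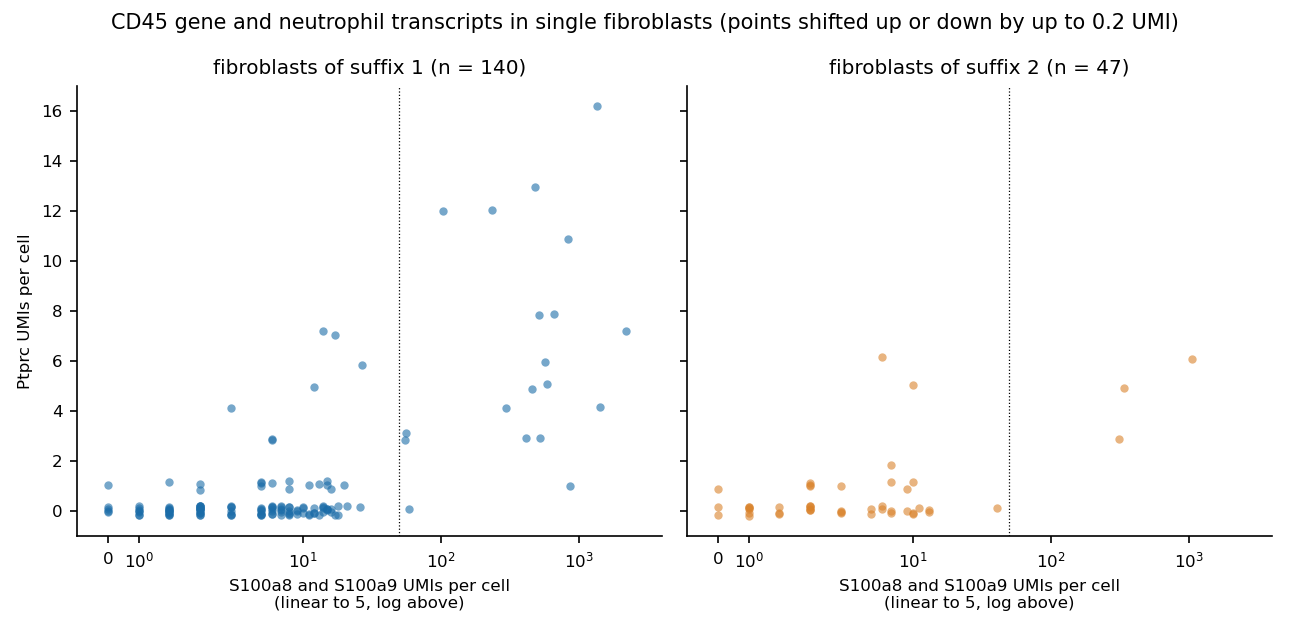
UMIs of S100a8 and S100a9 together (x axis) against Ptprc UMIs (y axis) for each fibroblast of suffix 1 and suffix 2, with points shifted up or down by up to 0.2 UMI. Right of the dotted line at 50 UMIs lie 19 and 3 cells, of which 18 and 3 have a Ptprc UMI.

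Results that rest on these cells change without them. The Ptprc level of suffix 1 fibroblasts was 1.34 without the 19 cells. Against epithelial cells, Il1b was higher in suffix 1 fibroblasts (15.2, against 6.83; log2 ratio 1.15), but its log2 ratio was -0.73 without the 19 cells and -1.98 without the 41 cells that have a Ptprc UMI. The adipose and neutrophil gene G0s2 was also called higher than in epithelial cells, and its log2 ratio was -1.23 and -1.06 without these cells. The summed level of the 4 markers was 702 with all fibroblasts and 730 without the 19.

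Beyond this, the fibroblasts differed among themselves along several sets of genes. The limits below, 5 UMIs of a gene or list, were chosen after the values were seen, so each group is described and not tested. The gene that sets a group is no finding in it.

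Endothelial markers were higher in fibroblasts than in all other cells, and a few cells carried them. Of 6 measured endothelial genes, Tie1, Emcn, Egfl7 and Sox18 passed in suffix 1, and the list summed to 6.26 in suffix 1 fibroblasts, against 1.70 in all other cells and 0.937 in epithelial cells, and to 10.6 in suffix 2 fibroblasts. At least 5 UMIs of the list were found in 8 of 140 cells (5.71%) and 5 of 47 (10.6%). Col3a1 had 0 UMIs in the 8 cells, against a level of 598 in the remaining fibroblasts, and 1 UMI in the 5 cells of suffix 2, against a level of 668. In all, 6 of the 8 and 3 of the 5 had no UMI of the 14 fibroblast markers. Cd93, a lectin-like receptor of endothelium and myeloid cells that the list did not hold, had a level of 43.9 in the 8 cells, against 0.190 in the remaining fibroblasts, and 38.6 in the 5 cells, against 0.0562. Fabp4, a fatty acid carrier of capillaries and adipocytes, had 67.6, against 17.7, and in suffix 2 689, against 6.07. In suffix 1 it was not particular to these cells: cells with 5 or more Rgs5 UMIs, described next, had 68.8, against 17.7. In suffix 2 such Rgs5 cells had 18.9, against 36.5. The 8 cells had a median of 1199 UMIs, against 2332 in the remaining fibroblasts. Leukocyte genes moved with the 8 cells: Ptprc had a level of 11.9, against 3.21 (log2 ratio 1.89 [1.19, 2.53]), Laptm5 8.78, against 2.95, and Ctss 12.9, against 4.94, and 5 of the 8 cells had a Ptprc UMI, against 0 of the 5 cells of suffix 2. Their part in the result was not tested. The near absence of fibroblast markers in both sets, 8 and 5 cells, goes against the fibroblast name. Without the 8 cells, the log2 ratio to epithelial cells was -0.22 for Emcn and -0.19 for S1pr1, which had both been called higher. That of Cd93 was -1.26 without the cells that have a Ptprc UMI.

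A group marked by Rgs5, a regulator of G protein signalling known from pericytes, had less Col3a1, Tnc and Fn1. It held 9 cells of suffix 1 (6.43%) and 5 of suffix 2 (10.6%) with 5 or more Rgs5 UMIs, at median depths of 2301 and 2604 UMIs, against 2335 and 4027. Des, the muscle filament desmin, had a level of 12.8 in the 9 cells, against 0.400 in the remaining fibroblasts, and 20.5 in the 5 cells, against 0.300. Heyl, a Notch target, had 5.86, against 0.422, and in suffix 2 had a log2 ratio of 4.54 [2.49, 7.09], from 8 UMIs in 1 of the 5 cells. Gm13889 had 48.0, against 1.54, and 13.6, against 0.719, in suffixes 1 and 2. Col3a1 stood at 162 in the 9 cells, against 591 in the remaining fibroblasts, and at 192 in the 5 cells, against 692. Tnc was at 2.66, against 55.8, and at 14.7, against 62.7. Fn1 was at 12.8, against 109, and at 19.4, against 114. Col5a2 was at 27.2, against 80.3, and at 23.6, against 93.1. Postn was at 22.4, against 66.3, and at 27.8, against 82.1, and Fbn1 at 9.06, against 25.7, and at 13.1, against 26.0. Not every matrix gene was lower in both suffixes. Dpt was higher in suffix 1, at 20.3, against 7.63 (log2 ratio 1.41 [0.89, 1.89]), with a log2 ratio of -0.06 in suffix 2. Col6a3 was lower in suffix 1, at 18.7, against 29.2, and higher in suffix 2, at 40.9, against 27.9.

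Other groups were set by Grem1 and by Sfrp2. At 5 or more UMIs, Grem1 was in 18 cells of suffix 1 (12.9%) and 10 of suffix 2 (21.3%), Sfrp2 in 15 (10.7%) and 9 (19.1%), and 0 cells had both in either suffix. The 0 holds at this limit only. At least 1 Sfrp2 UMI was in 5 of the 18 and 3 of the 10 Grem1 cells, beside 24 of 122 and 12 of 37 remaining fibroblasts. A Grem1 UMI was in 1 of the 15 and 1 of the 9 Sfrp2 cells, beside 32 of 125 and 13 of 38 remaining fibroblasts. With so few cells the overlap was not tested. Ptx3 at 5 or more UMIs was in 21 and 7 cells. Of these, 10 and 7 were also Sfrp2 cells, which is 47.6% of the Ptx3 cells and 66.7% of the Sfrp2 cells in suffix 1, and 100% and 77.8% in suffix 2. None of the Ptx3 cells was a Grem1 cell in either suffix (0 cells). Both groups were deep, with medians of 5375 UMIs in Grem1 cells and 6282 in Sfrp2 cells of suffix 1, against 1713 in the remaining fibroblasts of each split. In suffix 2 the medians were 4868.5 in Grem1 cells, against 2878, and 5780 in Sfrp2 cells, against 2406.5.

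The Grem1 cells had more Tnc and less Col3a1. In suffix 1 Tnc had a level of 93.4 in Grem1 cells, against 44.4 in the remaining fibroblasts, and Col3a1 371, against 623. In suffix 2 Tnc had 91.6, against 42.9, and Col3a1 289, against 795. Angptl2, an angiopoietin-like secreted protein, had 17.5, against 3.84 (log2 ratio 2.19 [1.87, 2.52]), in suffix 1 and 31.9 in suffix 2 (1.54 [1.21, 1.86]). Inhbb, an activin chain, had 4.76, against 1.38, and 8.63, against 2.01. Twist2 had 4.33, against 1.00, and 6.52, against 2.56, and Pi15, a peptidase inhibitor, had 4.33, against 1.20, and 8.28, against 0.930. Col6a3 had 51.9, against 23.4, in suffix 1, with a smaller log2 ratio of 0.70 [0.45, 0.95] in suffix 2. Prrx1 had 25.6, against 12.0, in suffix 1, with a log2 ratio of 0.66 [0.31, 1.01] in suffix 2. Ptx3, Sfrp2 and Il6 were low in these cells, with Il6 at 0.528, against 5.24, in suffix 1 and 0.176, against 10.8, in suffix 2.

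The Sfrp2 cells had more Col3a1 and less Tnc. Col3a1 stood at 1184 in Sfrp2 cells of suffix 1, against 415 in the remaining fibroblasts (log2 ratio 1.51 [1.48, 1.55]), and at 1376, against 301, in suffix 2 (2.19 [2.14, 2.25]). Tnc was at 20.3, against 62.6, and at 24.7, against 73.0. Ptx3 had 47.1, against 6.50, and 28.0, against 0.629. The connective tissue genes Dpt (20.0, against 4.99, and 28.1, against 3.70), Svep1 (24.4, against 6.68, and 25.6, against 3.07) and Ccn5, a matricellular protein that lacks the growth-factor-like end of its family (21.9, against 2.07, and 22.3, against 4.72), were also higher. Ackr3, a scavenging chemokine receptor, had 12.1, against 3.30, and 17.0, against 1.65. F3, the tissue factor that starts coagulation, had 15.6, against 2.87, in suffix 1 but 3.41, against 3.54, in suffix 2 (log2 ratio -0.05 [-0.89, 0.74]). The other genes given here differed in the same direction in both suffixes.

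The Ptx3 cells overlapped the Sfrp2 cells and differed from the remaining fibroblasts in many of the same genes. In suffix 1 the 21 Ptx3 cells had 165 of the 214 Il6 UMIs, at a level of 11.3, against 1.41 in the remaining fibroblasts. In suffix 2 the 7 Ptx3 cells had 60 Il6 UMIs and the remaining fibroblasts 81, at levels of 12.3 and 5.92. Lbp had 44.2 in Ptx3 cells, against 5.87, and 40.2, against 5.84, in suffix 2. Cpxm1 had 83.6, against 13.8, and 117, against 20.5. Prg4 had 27.6, against 1.09, and 14.3, against 0.584, and Podn, one of the 4 markers, had 13.2, against 2.25, and 8.38, against 1.10. Serpine2 was lower, at 13.2, against 39.0, and at 4.29, against 34.7. The Ptx3 cells had medians of 6031 and 7723 UMIs, against 1164 and 2741 in the remaining fibroblasts. In suffix 1, 12 cells had 5 or more Il6 UMIs, and 10 of these 12 had a Ptx3 UMI, beside 21 of the 128 remaining fibroblasts. In suffix 2, 9 cells had 5 or more Il6 UMIs, and 4 of these 9 had a Ptx3 UMI, beside 8 of the 38 remaining. The Il6 cells were deeper, with medians of 7750.5 UMIs, against 1781, in suffix 1 and 4885, against 3349.5, in suffix 2. The part of depth in these shares was not tested. The 5 suffix 2 cells with endothelial markers held 27 of the Il6 UMIs, at a level of 34.7, against 6.40 in the remaining fibroblasts.

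**Figure D5:**
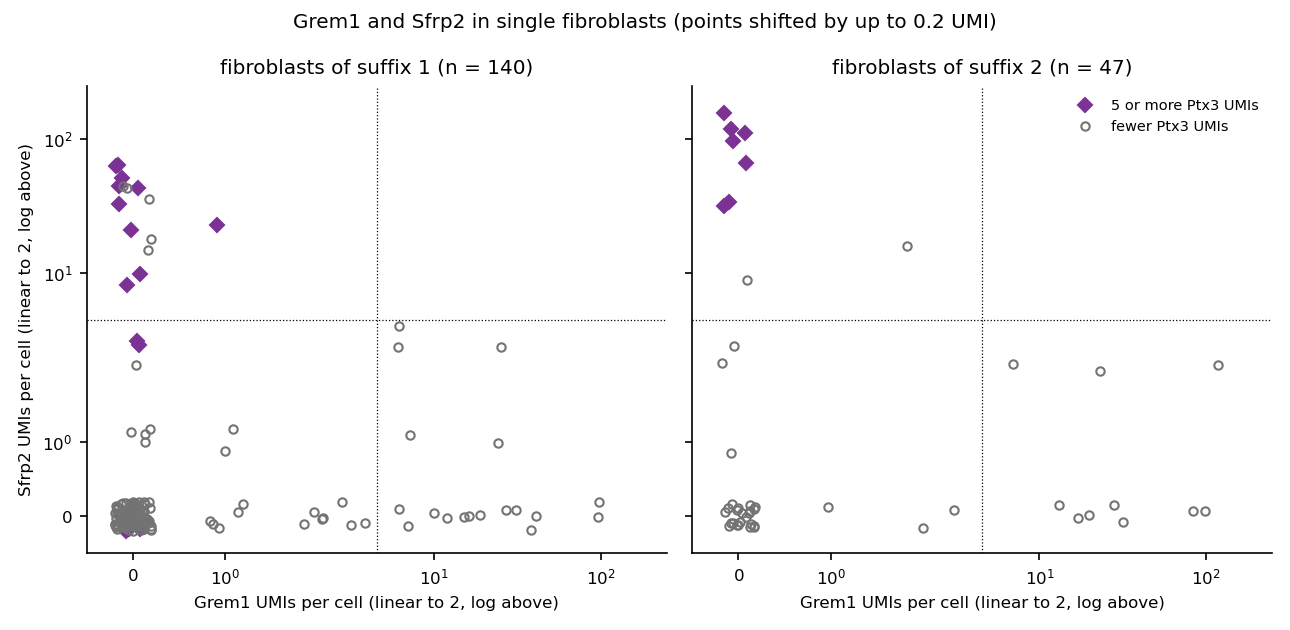
Grem1 UMIs against Sfrp2 UMIs in each fibroblast of suffix 1 and suffix 2, with overlapping points shifted slightly. Dotted lines mark 5 UMIs and purple diamonds are cells with 5 or more Ptx3 UMIs: 18 and 10 cells lie past the Grem1 line, 15 and 9 past the Sfrp2 line, 0 past both, and 10 and 7 of the Sfrp2 cells are diamonds.

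Few genes differed between the fibroblasts of suffix 1 and those of suffix 2. Of 1678 genes tested between them, 18 (1.07%) were higher in suffix 1 and 7 (0.417%) lower, and the median log2 ratio of suffix 1 over suffix 2 was 0.01. Of 8 tested collagens and of the 4 markers, 0 passed in either direction. As the suffixes are not tied to samples, these are differences between a pair of cell sets and not between the Mif-depleted and wild-type groups.

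Of the genes higher in suffix 1, Angptl1, an angiopoietin-like protein, had 245 UMIs in 33 of the 140 cells of suffix 1. It had 0 UMIs in the 47 cells of suffix 2 (log2 ratio 4.94 with 3 counts put for the 0, lower limit of the interval 4.63). Fmod had 68 UMIs in 17 cells of suffix 1 and 0 in suffix 2 (3.09, lower limit 2.76). Dkk2, a Wnt antagonist, had levels of 1.44 in suffix 1 and 0.215 in suffix 2, and Hmcn2 and Ptger3 were also higher. Igfbp5, Crabp2, Slpi and Il1b passed too, and 1 cell held 425 of 537, 78 of 128, 688 of 879 and 338 of 749 of their suffix 1 UMIs. The other 9 included the leukocyte genes C1qa, C1qb, C1qc, Ctss, Fcgr3, Fcer1g and S100a9. S100a9 had 151 in suffix 1 and 52.7 in suffix 2. The share of cells rich in S100a8 and S100a9 was 13.6% in suffix 1 (19 cells) and 6.38% in suffix 2 (3 cells). It is set by UMIs of S100a9 itself and adds nothing to the level. C1qa had 5.78 and 1.40, and 3 cells held 62.5% of its suffix 1 UMIs. Outside the 19 suffix 1 cells rich in S100a8 and S100a9, the C1qa level was 4.94.

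Of the 7 genes lower in suffix 1, Sfrp2 had 545 UMIs in suffix 1 and 657 in suffix 2 from fewer cells (log2 ratio -1.68 [-1.84, -1.51]), and Grem1 10.3 and 24.2 (-1.23 [-1.41, -1.04]). Angptl2 had 6.47 and 17.4 (-1.43 [-1.65, -1.20]), from 64 and 30 cells. The share of Sfrp2 cells was 10.7% in suffix 1 and 19.1% in suffix 2, and that of Grem1 cells 12.9% and 21.3%, at median depths of 2301 UMIs in suffix 1 and 3782 in suffix 2. These shares are set by UMIs of the same genes and add nothing to the levels. The top 3 cells of suffix 2 held 59.2% of the Sfrp2 UMIs and 67.1% of the Grem1 UMIs. Selp, an endothelial and platelet selectin, had 15 UMIs in 5 cells of suffix 1 and 65 UMIs in 3 cells of suffix 2. Cd36 and Fabp5, carriers of fatty acids, and Mmp9, with 161 of 258 UMIs in 1 cell of suffix 2, were the others. The 5 suffix 2 cells with endothelial markers held all 65 Selp UMIs and 50 of the 51 Cd36 UMIs of that suffix. Selp is on the list that sets these cells, and their markers go against the fibroblast name.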

How the data were processed

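Single-cell RNA was measured by droplet sequencing in 4 libraries of CD45-sorted 4T1 tumour cells. The authors deposited whole UMI counts per gene and cell and 1 cell type name per barcode. Cell Ranger, Seurat and the GRCm38 (mm10) build are named in the submitters' processing notes; their versions and settings: not given in the sources used here. Counts were used for 16383 cells and 4099 complete gene rows, and 1 incomplete row was left out. Symbols of 4067 genes matched GENCODE M21.

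UMIs were summed over the cells of a name and suffix and divided by their total, per 10000. A gene was tested with at least 50 UMIs over both sides and called when the exact 95% interval of its ratio lay beyond 2-fold. A side with 0 UMIs was set to 3 counts, over the whole group. Intervals cover counting error only, since cells are not replicates. Named genes were the 20 highest and 10 lowest called genes against all other cells, the 15 highest and 15 lowest against epithelial cells, and members of 11 gene lists (162 of 296 genes measured) and 14 cell marker lists (77 of 133). The members and the lists were chosen with earlier results of these data known. Genes named among subgroups and between suffixes were chosen after their values were seen. No cells were filtered and no doublet caller was run. A few genes and 1 cell type name are left unreported. The calculations were tested on simulated counts. Software: scipy 1.17.1 for the intervals, pandas 2.3.3 and numpy 2.4.6 for the sums and matplotlib 3.10.9 for the plots, under Python 3.11.15.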

Additional observations from a re-analysis of the deposited data

How the results depend on the processing

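The 588 higher and 208 lower genes against all other cells, and the 273 higher and 172 lower genes against epithelial cells, refer to suffix 1. In suffix 2, 333 were higher against all other cells, and 157 higher and 81 lower against epithelial cells. With S100a8 and S100a9 out of the denominator, 330 were lower against all other cells. With UMIs per cell the 4 counts were 971, 100, 428 and 95. With no minimum of UMIs, 457 were higher than in epithelial cells, and at 1.5-fold 347 and 341 were lower than in all other and in epithelial cells. Fewer cells, other totals and other limits are what these settings change by construction. The Ptprc level of 3.55 became 1.88 in suffix 2, 1.25 as UMIs per cell, 1.34 without the 19 fibroblasts rich in S100a8 and S100a9, and 0 by construction without the 41 cells that have a Ptprc UMI. The summed level of the 4 markers, 702, became 781 in suffix 2, 721 with S100a8 and S100a9 out of the denominator, 247 as UMIs per cell, 764 without the 41 cells, 722 without the 14 deepest cells, 468 as a mean over cells, 731 without the 8 cells with endothelial markers and 730 without the 19. The last 2 settings were chosen after seeing the data. The share of fibroblasts, 1.08% of annotated barcodes, was 1.14% among cells with counts. Of 4103 gene ratios recomputed over 258 genes, 2796 stayed within the interval and 1297 moved beyond it. The remaining 10 changed sign, all for genes that had been called higher or lower. Sign changes of genes that had not been called were not counted apart. Against epithelial cells the log2 ratio became -1.26 for Cd93, -1.06 for G0s2, -1.98 for Il1b and -0.11 for S1pr1 without the 41 cells, -0.22 for Emcn and -0.19 for S1pr1 without the 8, -1.23 for G0s2 and -0.73 for Il1b without the 19, and -0.26 for Il1b without the 14. Ocstamp became 0.58 against all other cells as a mean over cells. For these sign changes the cause was not tested, beyond what leaving the cells out shows. Suffix 2 has 47 fibroblasts, so a gene at a level of 1 rests on few UMIs there. No paired analysis was possible because no label ties the barcode suffixes to samples.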

Other observations

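Wt1, a transcription factor of mesothelium and kidney, had 52 UMIs in 22 suffix 1 fibroblasts. Cd34, a sialomucin of stem cells, endothelium and some fibroblasts, had 190 UMIs in suffix 1 fibroblasts, a level of 3.85, against 0.100 in all other cells, and 0 UMIs in epithelial cells. Its level was 19.6 in the 8 fibroblasts with endothelial markers, against 3.21 in the remaining ones, and 0.211 in Grem1 cells, against 4.72. Of the marker lists for other cell types, the mural list had 2 of 2 tested genes higher in suffix 1 fibroblasts (Rgs5 and Myl9), with a summed level of 16.5, against 0.0110 in all other cells. The mesothelial and the bone or cartilage lists had 1 measured gene each, Wt1 (1.05, against 0.000344) and Alpl (0.365, against 0.0299), and each was higher. Rgs5, Myl9 and Wt1 reached the minimum of UMIs for a test only through the fibroblasts. Once tested, these genes could hardly be called anything but higher, so their calls are descriptions.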
